A study of Mus musculus with 4 samples.

Results

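The 10 genes described here encode the core machinery of RNA interference and of the microRNA (miRNA) pathway in the mouse. They are the Argonautes Ago1, Ago2, Ago3 and Ago4, the nuclear pair Drosha and Dgcr8, the export factor Xpo5, and Dicer1 with its partners Tarbp2 and Prkra. They were listed by name, with no value of theirs used in the rule, though earlier results of these data were known, and they are 10 of the 20424 genes named in the data. Of the 10 genes, 9 had values of their own, and 8 were high enough to be tested.

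A miRNA gene is first transcribed as a long primary transcript that folds into a hairpin. In the nucleus the Microprocessor, made of the RNase III enzyme Drosha and its RNA-binding partner Dgcr8, cuts the hairpin out, and Exportin-5 (Xpo5) carries it to the cytoplasm. There Dicer, helped by the double-stranded RNA binding proteins Tarbp2 and Prkra, cuts off the loop. One strand of the duplex is then loaded into an Argonaute protein, which finds mRNAs by pairing with the seed of the small RNA. Synthetic small interfering RNAs (siRNAs) enter the same route at the loading step. In mouse embryonic stem (ES) cells the pathway is needed for normal proliferation and for differentiation.

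RNA-seq was performed on 46C mouse ES cells, in which the endogenous Atad2 gene carries a TAP tag, a knock-in present in all libraries. Atad2 is a chromatin protein with an AAA ATPase domain and a bromodomain. Cells were grown on gelatin in serum and LIF, and were transfected with a scrambled siRNA (si-ctrl, 2 libraries) or with siRNA against Atad2 (si-Atad2, 2 libraries). According to the study the tagged cells came from a single selected clone. No untransfected library was analysed here, so the response of the siRNA machinery to transfection itself was not measured. The labels number the replicates 1 and 2, whereas a legend of the study mentions different active siRNAs and repeat sequencing of the RNA. Which siRNA went into which library is not given in the sources used here, and if the replicates are not separate transfections the p-values measure technical spread only.

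Levels are given in FPKM, that is read fragments per kilobase of RNA after scaling for library size, summed over the transcripts of a gene. The change after the knockdown is the log2 ratio of (FPKM + 1) of si-Atad2 over si-ctrl within the pair of libraries with the same replicate number, a scale that understates the change of genes near 1 FPKM. The test was limma across all 9845 genes with a mean of at least 1 FPKM, with p-values adjusted over all of them. Atad2 itself stood at 34.1 and 36.0 FPKM in the controls (replicates 1 and 2, an order kept below) and at 10.1 and 13.0 FPKM after the knockdown. It fell by 1.53 on the log2 scale (SE 0.077, limma adjusted p = 4.05e-06), which left 29.6% and 36.2% of its level in the respective pairs. All 8 ES cell markers were found, at 62.9 to 1013 FPKM. The 9 markers of differentiated lineages summed to 6.25 to 6.62 FPKM in the 4 libraries, and the 6 fibroblast feeder markers to 1.48 to 1.79 FPKM, with 4 of those 6 under 0.1 FPKM in every library. Total read depth is unknown, since the tables hold no counts.

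At an adjusted p of 0.05, 210 of the 9845 genes changed (2.13%), 165 higher (1.68%) and 45 lower (0.457%) after the knockdown. None of the 8 machinery genes tested did. By limma's unadjusted p of 0.05, 3 of the 8 passed (Ago1, Ago2 and Tarbp2), against 16.3% of all genes tested. The levels of the si-Atad2 libraries lay outside those of the si-ctrl libraries for 6 of the 8, where 49.3% of all genes tested had such levels. They were 2 higher (22.6% of all genes) and 4 lower (26.7%). Ago1 and Drosha were higher in both pairs (28.8% of all genes were), Ago2, Ago3, Tarbp2, Prkra and Xpo5 were lower in both (34% of all genes were), and Dicer1 had opposite signs. Their median log2 ratio was -0.05, beside -0.0079 over all genes tested, and their median absolute log2 ratio was 0.082, beside 0.077 over all genes. Since the samples are bulk RNA, less RNA per cell and fewer cells carrying it cannot be told apart.

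In the control cells the machinery genes ranged from 0.22 FPKM for Ago4 to 45.5 FPKM for Xpo5. In descending order of the si-ctrl mean they were Xpo5, Drosha, Ago2, Dicer1, Tarbp2, Ago1, Prkra, Ago3 and Ago4. Xpo5 was above 87.6% of all genes tested, Drosha above 84.7%, and Ago3 above only 26.3%. Neighbours in this order were separated in both si-ctrl libraries, with the exception of Dicer1 and Tarbp2, whose levels overlapped. Tarbp2 and Ago1 no longer separated once the si-Atad2 libraries were included. The place of Ago2 above Dicer1 and Tarbp2 rests on a short transcript of Ago2, described below. The 9 genes together summed to 180.4 and 177.4 FPKM in the controls, and to 176.2 and 172.7 FPKM after the knockdown. For that sum the pairs gave log2 ratios of -0.03 and -0.04, beside -0.02 between the si-ctrl libraries.

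**Figure D1:**
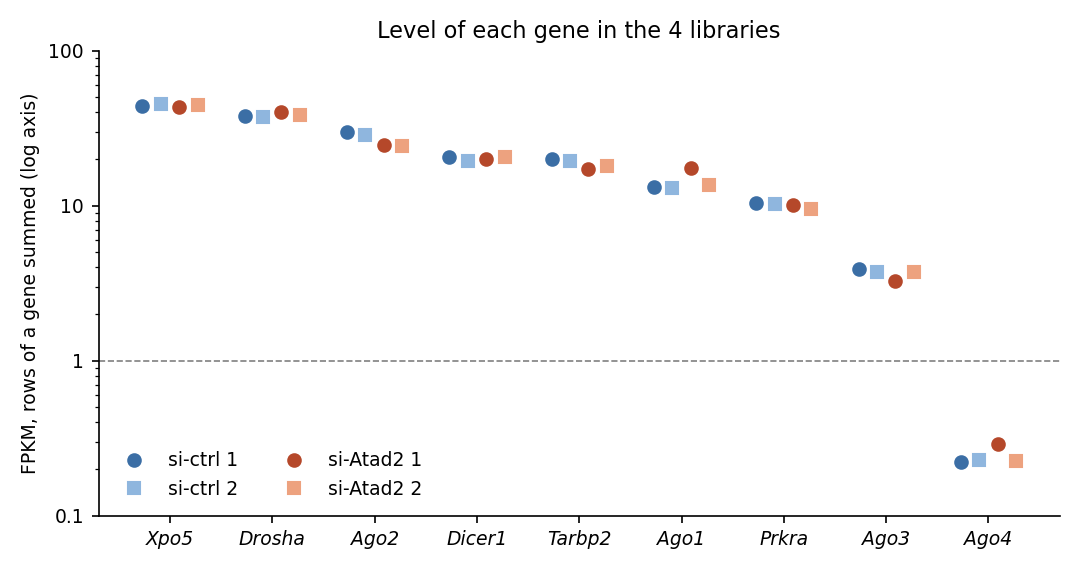
Level of each machinery gene with values of its own in each library, in FPKM summed over a gene's transcripts, on a log axis. Circles are replicate 1 and squares replicate 2, blue for si-ctrl and red for si-Atad2, and the dashed line is the minimum mean of 1 FPKM for testing. Genes are ordered by their si-ctrl mean, from Xpo5 at 44.9 FPKM down to Ago4, which lies under the line in all 4 libraries.

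Among the Argonautes, Ago2 was lower and Ago1 higher in both si-Atad2 libraries, though neither passed the adjusted test. Ago2 is the Argonaute known to cleave a fully matched target, the step on which siRNA knockdown rests. It measured 30.0 and 28.5 FPKM in the controls, against 24.6 and 24.2 FPKM after the knockdown. Both knockdown libraries thus lay below both controls, at 82.1% of the control in pair 1 and 85.0% in pair 2. The log2 ratios were -0.27 and -0.23, with a mean of -0.25 (SE 0.065, 95% interval -0.39 to -0.11, n = 2 pairs), beside -0.07 between the si-ctrl libraries. The limma p was 0.00272 unadjusted and 0.0796 adjusted, and over the alternatives the adjusted p ranged from 0.0553 to 0.509.

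The Ago2 sum joins a pair of separately listed transcripts, and both were lower in each pair. The gene lies at chr15:73095844-73184935 on the minus strand of GRCm38 and has up to 19 exons. A transcript of 8031 bases, which covers the gene up to the first part of its 3′ UTR, measured 15.0 and 12.9 FPKM in the controls, and 12.0 FPKM in both knockdown libraries. A transcript of 829 bases that lies wholly in the annotated 3′ UTR exon, at chr15:73098490-73099318, measured 15.0 and 15.6 FPKM in the controls, and 12.7 and 12.2 FPKM after the knockdown. The log2 ratios were -0.30 and -0.10 for the long transcript and -0.23 and -0.32 for the short one. Between the controls the long transcript went from 15.0 to 12.9 FPKM, a larger drop than within pair 2. The short one went from 15.0 to 15.6 FPKM. Because both count toward Ago2 per length, its summed level is about that of the long transcript doubled. In the controls the long transcript alone lay above the highest transcripts of Dicer1 (11.4 and 12.6 FPKM) and Tarbp2 (9.55 and 8.94 FPKM). It lay below the summed levels of Dicer1 (20.6 and 19.4 FPKM) and Tarbp2 (20.2 and 19.4 FPKM), by which the genes were ordered. The place of Ago2 above them thus needs the short transcript. The short transcript was above the long one in every library, and it is the one used where only the highest transcript is taken. The long transcript alone stood close to Ago1, as given with the Argonaute ratios.

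Ago1, a close relative of Ago2 that does not efficiently slice its targets, was higher after the knockdown, but unequally in the pairs. Its levels were 13.2 and 12.9 FPKM in the controls, then 17.5 FPKM in si-Atad2 1 and 13.6 FPKM in si-Atad2 2. The library si-Atad2 1 stood apart from the other 3, which lay within 1 FPKM of each other. Pair 1 gave a log2 ratio of 0.38 and pair 2 one of 0.06, for a mean of 0.22 (SE 0.084, 95% interval 0.04 to 0.41, limma adjusted p = 0.213, 0.154 to 0.700 over the alternatives). Nearly all of it came from a transcript of 7064 bases, for which the authors' 95% interval was 15.9 to 16.8 FPKM in si-Atad2 1 and 12.2 to 13.0 FPKM in si-Atad2 2. These intervals do not overlap, but they cover the error of each library's own estimate and not the spread between cultures.

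Ago3 and Ago4 were the least expressed. Ago3 measured 3.88 and 3.73 FPKM in the si-ctrl libraries and 3.29 and 3.72 FPKM in the si-Atad2 libraries, so that si-Atad2 2 lay just under the lower control. Its mean log2 ratio was -0.10 (SE 0.085, limma adjusted p = 0.631). The sum again includes a transcript in the 3′ UTR exon, of 3168 bases at chr4:126333583-126336750, which held 51.9 to 58.6% of the FPKM, and the mean ratio was 0.02 when this highest transcript alone was used. Ago4 was at 0.22 and 0.23 FPKM in the controls and at 0.29 and 0.23 FPKM after the knockdown, under the minimum for testing. Ago4, Ago1 and Ago3 lie next to each other on chromosome 4, on the minus strand between positions 126331704 and 126533472, so that genes of 1 cluster differed widely in level.

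Taken as shares of the summed Argonaute FPKM, Ago2 made up 63.5% and 62.8% in the controls, and 54.0% and 58.0% after the knockdown. The share of Ago1 was 27.8% and 28.5% in the controls, and 38.2% and 32.5% after the knockdown. Neither share overlapped between the conditions, nor did the levels of 49.3% of all genes tested. The shares restate the levels of Ago2 and Ago1, and a smaller Ago2 share leaves a larger one for the others. Ago3 held 7.19 to 8.92% with overlap, and Ago4 under 1% throughout. The linear ratio of Ago2 to Ago1 was 2.28 and 2.2 in the controls, and 1.41 and 1.79 after the knockdown. With the long Ago2 transcript alone it was 1.14 and 0.998 in the controls, and 0.685 and 0.884 after the knockdown, again without overlap. With 2 libraries per condition an exact permutation test of such a ratio cannot give a two-sided p below 0.333, so it stays a description.

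**Figure D2:**
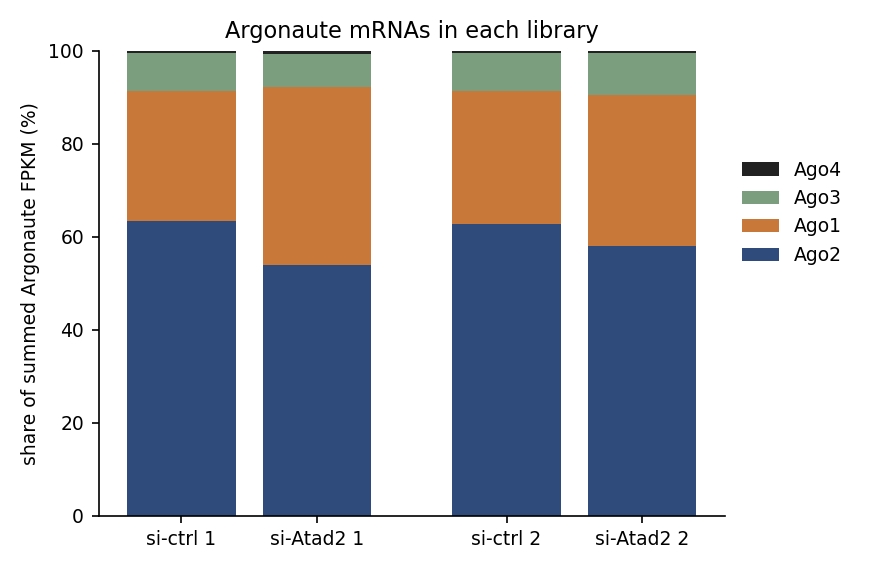
Share of the summed Argonaute FPKM held by each Argonaute gene, in percent, in each of the 4 libraries, with the libraries of a pair side by side. The Ago2 part is smaller and the Ago1 part larger in si-Atad2 than in si-ctrl in both pairs, more so in pair 1 (63.5% to 54.0% for Ago2) than in pair 2 (62.8% to 58.0%).

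The small RNAs that fill these Argonautes were not measured in this RNA-seq, but their sequences show what the proteins read. ES cells are known for the miR-290 cluster, and differentiated cells for let-7. The mature sequences, from RefSeq (GRCm38.p6), carry the seed at bases 2 to 8 in capitals. Members of the first group come from chr7:3218968-3218989, chr7:3220815-3220837 and chr3:127545275-127545297, and those of the second from chr9:106178846-106178867 and chr10:122985698-122985719, in the order listed.
mmu-miR-291a-3p: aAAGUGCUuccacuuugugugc
mmu-miR-295-3p: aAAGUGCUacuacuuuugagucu
mmu-miR-302b-3p: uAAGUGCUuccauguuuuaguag
mmu-let-7g-5p: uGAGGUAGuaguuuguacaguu
mmu-let-7i-5p: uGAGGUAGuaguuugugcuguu
Within a group the sequences share the seed and differ in the bases after it. The chromosome 3 member, miR-302b, is not part of the miR-290 cluster and was placed with it by its seed.

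The complement of each seed was searched for on the sense strand of the 3′ UTR of the transcript with the longest coding sequence of each machinery gene, as AGCACTT for miR-290 and miR-302 and CTACCTC for let-7. These letters do not overlap each other. AGCACTT was found in 1 of the 10 genes, Ago3, which holds 3 matches, and CTACCTC in 3 of the 10, namely Ago2 with 3 matches and Ago3 and Tarbp2 with 1 each. Over all annotated 3′ UTRs 12.5% hold AGCACTT and 7.61% hold CTACCTC. Long UTRs hold them more often, and the UTRs of Ago2 (11064 bases) and Ago3 (12742 bases) are among the longest. Of the genes with a 3′ UTR within 20% of that of Ago3, 81.6% hold AGCACTT, and 43.8% of those like Ago2 hold CTACCTC. Ago2 lacks AGCACTT, which 79.7% of UTRs of like length hold. The 334 bases of Tarbp2 hold a match found in 2.81% of UTRs of like length. One match from each gene is shown, with the 7 matching bases in capitals, at chr15:73097982-73097997 (minus strand), chr4:126338311-126338326 (minus strand) and chr15:102523436-102523451 (plus strand) of GRCm38.
Ago2: atgtggatCTACCTCa
Ago3: ttaattgcAGCACTTa
Tarbp2: tgccatctCTACCTCt
A match is a stretch of letters and not a measured site. The matches shown for Ago2 and Ago3 lie outside the transcripts of these genes whose levels are given here. Another match of each, at chr15:73101724-73101739 for Ago2 and chr4:126335515-126335530 for Ago3, lies within the span of such a transcript. Ago1, Ago4, Drosha, Dgcr8, Xpo5, Dicer1 and Prkra have neither motif in this window. Of UTRs as long as theirs, 1.68% (Drosha) to 42.7% (Ago1) hold AGCACTT and 0.979% (Drosha) to 24.2% (Ago1) hold CTACCTC.

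Of the Microprocessor only Drosha could be tested, and it did not pass. Drosha, the RNase III enzyme that cuts the primary transcript, measured 37.7 and 37.4 FPKM in the controls and 40.0 and 38.2 FPKM after the knockdown. The mean log2 ratio was 0.06 (95% interval -0.08 to 0.20, limma adjusted p = 0.705). A single transcript of 4567 bases carried 98.4 to 99.1% of the gene's FPKM in every library.

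Dgcr8, which binds the hairpin and positions Drosha, could not be given a value of its own. Its transcripts share a locus in the tables with those of Trmt2a, a tRNA methyltransferase gene, at chr16:18248872-18289168, and the lengths did not tell most of them apart. The 11 transcripts of at least 200 bases at that locus summed to 35.4 and 35.5 FPKM in the controls, and to 33.5 and 36.5 FPKM after the knockdown, with log2 ratios of -0.08 and 0.04. A transcript of 3520 bases at the locus matched Trmt2a by length, and the longest annotated transcript of Dgcr8 has 4320 bases. A further transcript, of 4411 bases, exceeds both lengths. The highest transcript of the locus, chosen after its values were seen, has 4225 bases and was assigned to neither gene. It measured 15.0 and 15.2 FPKM in the controls, and 15.0 and 16.2 FPKM after the knockdown. Those values overlapped between the conditions, and they were not tested.

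The Dgcr8 transcript is known to be a substrate of the Microprocessor itself, through hairpins near its 5′ end. In the annotation miR-3618 lies in a 5′ UTR exon of Dgcr8, at chr16:18284562-18284623, and miR-1306 lies in a coding exon, at chr16:18284248-18284310, both on the gene's strand. The arms of miR-1306 from RefSeq (GRCm38.p6) are shown with the seed in capitals.
mmu-miR-1306-5p: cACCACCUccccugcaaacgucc
mmu-miR-1306-3p: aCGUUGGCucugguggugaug
A row of 79 bases for the miR-1306 hairpin was listed at 0 FPKM in all 4 libraries, as was one of 89 bases for miR-693, whose hairpin lies in an intron of Xpo5. These hairpin rows are under the minimum length used here, and mature miRNAs were not measured.

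Xpo5, the exporter of the hairpin precursors, was the most expressed of the 9 genes and the one whose pairs differed least. It measured 44.3 and 45.5 FPKM in the controls and 43.1 and 44.3 FPKM after the knockdown, with overlap. The log2 ratio was -0.04 in each pair and in the mean (95% interval -0.17 to 0.10, limma adjusted p = 0.816), and the si-ctrl libraries differed by 0.04.

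Dicer1, the RNase III enzyme that makes the mature duplex, also overlapped. Its levels were 20.6 and 19.4 FPKM in the controls and 20.1 and 20.8 FPKM in si-Atad2 1 and 2. The pairs gave log2 ratios of -0.03 and 0.09 (mean 0.03, 95% interval -0.12 to 0.18, limma adjusted p = 0.879). The full-length transcript of 9851 bases held 55.2 to 64.9% of the sum, and one of 1573 bases held 25.7 to 30.2%.

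Of Dicer's partners, Tarbp2, which with Dicer forms the complex that hands the duplex to Argonaute, was lower after the knockdown in both pairs. It measured 20.2 and 19.4 FPKM in the controls, and 17.2 and 18.2 FPKM after the knockdown. The controls lay above both knockdown libraries, but the mean log2 ratio of -0.15 (SE 0.070) had a limma adjusted p of 0.306. Its main transcripts, of 1790 and 1819 bases, did not move alike, since the shorter had ratios of -0.13 and -0.28 and the longer -0.23 and 0.11. Prkra, the second such partner and an activator of the kinase PKR, measured 10.4 and 10.2 FPKM in the controls and 10.1 and 9.52 FPKM after the knockdown. Its mean log2 ratio was -0.07 (SE 0.072, limma adjusted p = 0.690).

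**Figure D3:**
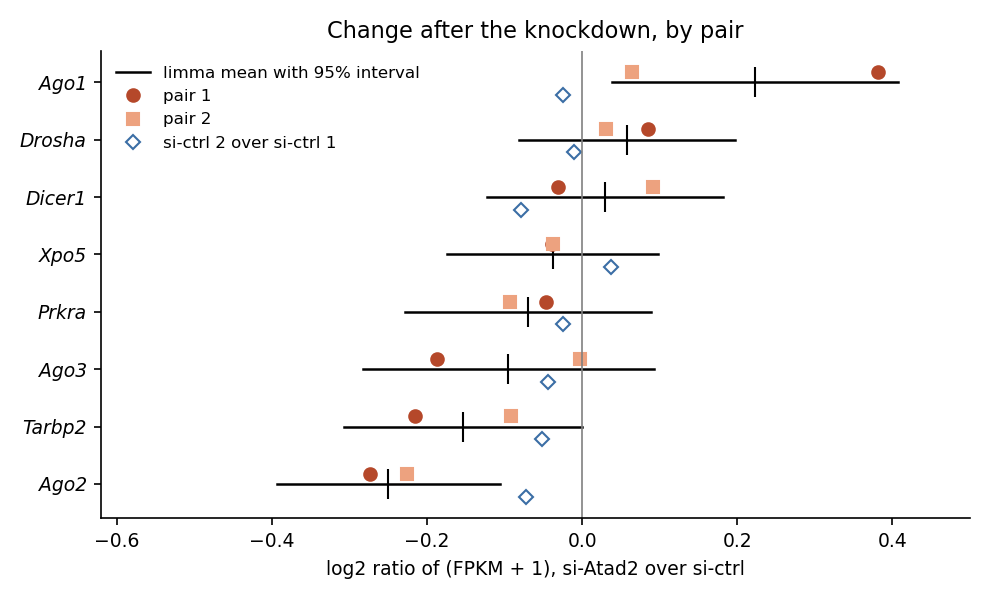
Log2 ratio of (FPKM + 1), si-Atad2 over si-ctrl, of the 8 machinery genes tested. Filled circles are pair 1, filled squares pair 2, the black tick and line the limma mean with its 95% interval, and open diamonds the difference between the si-ctrl libraries. Ago2 lies at -0.25 and Ago1 at 0.22, at the ends of the range, and the intervals of Drosha, Dicer1, Xpo5, Prkra and Ago3 cross 0.

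The pathway around the machinery was read from 7 lists with 86 genes, of which 71 were tested. Of these 3 rose and 0 fell at a limma adjusted p of 0.05, which is 4.23% against 2.13% of all genes, and their median log2 ratio was -0.0064. The genes that rose were Dnajb1, Piwil2 and Piwil4. Dnajb1, an HSP40 co-chaperone, was in the list of Argonaute loading chaperones, where 1 of 10 tested rose. It measured 19.8 and 19.3 FPKM in the controls and 27.3 and 24.9 FPKM after the knockdown, a mean log2 ratio of 0.39 (limma adjusted p = 0.0113). The call was lost with the GC trend removed (0.40, limma adjusted p = 0.0528), with transcripts of all lengths (limma adjusted p = 0.104) and with no filter on low values (limma adjusted p = 0.509).

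In the PIWI pathway, the germline relative of RNA interference, 2 of the 8 genes tested rose and the list's median log2 ratio was 0.14. Piwil2 measured 3.09 and 2.77 FPKM in the controls and 4.44 and 4.72 FPKM after the knockdown (0.51, limma adjusted p = 0.0107). Piwil4 measured 2.39 and 2.23 FPKM, then 3.49 and 3.36 FPKM (0.42, limma adjusted p = 0.0263). The PIWI proteins are of the same superfamily as the Argonautes. Across the 9845 genes the log2 ratio of si-ctrl 2 over si-ctrl 1 had a Spearman correlation with GC content of -0.53. That of si-Atad2 2 over si-Atad2 1 had one of 0.080. For the log2 ratio of si-Atad2 over si-ctrl it was -0.28 in pair 1 and 0.086 in pair 2. With that trend removed Piwil2 stood at 0.50 (limma adjusted p = 0.0600) and Piwil4 at 0.41 (limma adjusted p = 0.0699), so the calls were lost while the log2 ratios stayed about as large. Both calls were also lost with transcripts of all lengths (limma adjusted p = 0.120 and 0.144), with no filter on low values (0.531 for each) and with the highest transcript only (0.0652 and 0.151). That of Piwil2 was lost with names by length match only (limma adjusted p = 0.0815).

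No gene passed in the other 5 pathway lists, and the highest and lowest of each are given by their mean log2 ratios. Among 9 Argonaute partners and silencing effectors these were Tnrc6b, a GW182 scaffold protein, at 0.25, and Ddx6, an RNA helicase of P-bodies, at -0.19 (-0.10 and -0.29 in the pairs). Among 14 genes of tailing and decay they were the paralogs Lin28b at 0.32 and Lin28a at -0.20, both blockers of let-7 maturation. The pairs gave 0.52 and 0.12 for Lin28b, so that its mean rests mostly on pair 1, and -0.21 and -0.19 for Lin28a. Lin28a, at 75.3 to 91.9 FPKM, was much more abundant than Lin28b, at 7.51 to 11.2 FPKM. Among 17 genes of deadenylation and decapping, Cnot6 was highest at 0.16 (0.24 and 0.08 in the pairs) and its paralog Cnot6l lowest at -0.25, a mean that rests on pair 1 (-0.48 and -0.02). The 8 Microprocessor cofactors tested lay between -0.08 (Srsf3) and 0.02 (Hnrnpa2b1), and the 5 export genes between -0.20 (Rcc1) and -0.0045 (Rangap1).

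Of 5 genes reported as targets of the miR-290 family, 3 were tested and none passed. Cdkn1a, the cell cycle inhibitor p21, had the lowest log2 ratio, -0.20, and Ei24 the highest, 0.18. Both rest mostly on pair 1, with -0.39 and -0.01 in the pairs for Cdkn1a and 0.31 and 0.04 for Ei24. Of 9 miRNA host transcripts none could be tested, since 7 had no transcript assigned and 2 were under the minimum.

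**Figure D4:**
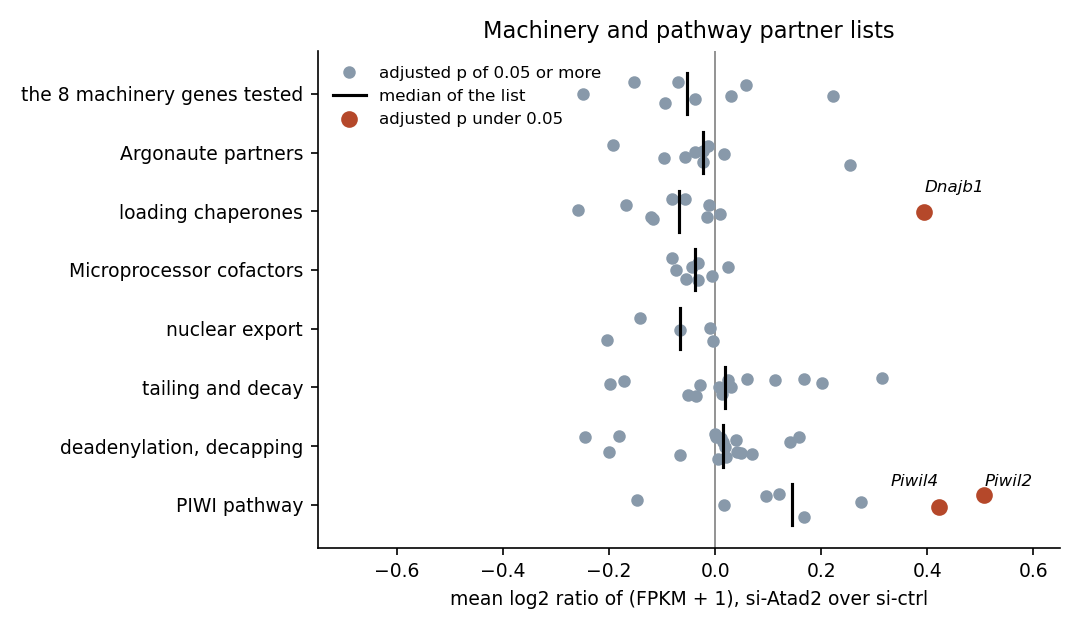
Mean log2 ratio of (FPKM + 1), si-Atad2 over si-ctrl, of each gene tested, for the machinery and the 7 pathway lists. Grey points did not pass a limma adjusted p of 0.05, red points did, and black bars are medians. The 3 red points are Dnajb1, Piwil2 and Piwil4, all above 0, and the machinery genes span -0.25 to 0.22.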

How the data were processed

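RNA-seq of 4 libraries was used, grouped by the sample labels. The paper gives TruSeq and paired ends of 50 cycles for its ChIP-seq libraries, and describes no library preparation for the RNA-seq. The authors' deposited FPKM come from 1 Cuffdiff run per pair of libraries, and were used with their 95% intervals. The submitters' notes name TopHat, Cuffdiff and mm9, and the supplement Bowtie, but the loci matched GRCm38. The deposited tables of the authors' own comparisons were not used. Each of the 59120 transcripts was named with GENCODE vM21, by length within 3 bases of an annotated transcript in its locus (14746), or by the locus's only coding gene (28325). The other 16049 had no name. Transcripts under 200 bases were dropped and FPKM summed per gene. Limma (lmFit on the pair of log2 ratios with a pseudocount of 1 FPKM, eBayes with trend, Benjamini-Hochberg) was run on genes whose 4 libraries averaged 1 FPKM or more with a valid status, and was tested on simulated data. Taking ratios within a pair makes the replicate number a block, as in the authors' runs. Whether the counting used the strand is not given in the sources used here, so genes that overlap are uncertain. Proteins were not used.

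The members and lists were chosen with earlier results of these data known. All 10 members and Atad2 are named. Of each other list the genes with an adjusted p under 0.05 are named, or else the highest and the lowest. Alternatives were other pseudocounts (0.1 or 5 FPKM), median-of-ratios scaling, rescaling to TPM, no minimum or 5 FPKM, transcripts of all lengths, names by length only, no block, no trend, GC correction, a threshold of 0.1, and leaving out each replicate. Using the highest transcript of each gene was added after seeing the data. The fits used limma 3.58.1 in R 4.3.3, and other steps Python 3.11.15 with pandas 2.3.3, numpy 2.4.6 and, for plots, matplotlib 3.10.9.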

Additional observations from a re-analysis of the deposited data

How the results depend on the processing

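None of the 8 machinery genes passed an adjusted p of 0.05 by limma under any setting that gave one, and Ago2 was the 1 gene that passed a threshold of 0.1. All kept the sign of their log2 ratio, except Ago3, at 0.017 with the highest transcript only (added after seeing the data), and Dicer1, at -0.031 without replicate 2 (0.091 without replicate 1).

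The number of genes changed, 210, was 139 with no replicate block, 69 after removal of the GC trend (with the block), 19 with transcripts of all lengths, 32 with names by length match only, 91 with the highest transcript only and 429 at a threshold of 0.1. With no filter on low values it was 0, though 1882 genes had an unadjusted p under 0.05, and Atad2 (-1.53) then had an adjusted p of 0.509; the cause was not tested. The share of calls that were higher was 78.6%, and 59.4% with names by length match only. Across 9845 genes, libraries with the same replicate number did not deviate together (Pearson r = -0.040), so the block rests on the shared Cuffdiff runs alone.

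The median log2 ratio of the machinery genes, -0.05, was -0.022 rescaled to TPM, 0.061 with names by length match only and -0.014 with the highest transcript only, and it lay between -0.043 and -0.020 when 1 replicate was left out. That of their sum, -0.04, was -0.00078 rescaled to TPM, -0.030 by median of ratios, -0.042 with transcripts of all lengths, 0.044 with names by length match only and -0.0053 with the highest transcript only. Length matching left 3 of the 8 genes. Depth is unknown. The 95% intervals are not adjusted over all genes, and those of Ago1, Ago2 and Tarbp2 left out 0 although none of these genes passed. With 2 pairs, changes of that size could thus be missed by the adjusted test.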
